A study of Homo sapiens with 12 samples.

Results

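Metallothioneins are small cysteine-rich proteins that bind zinc, copper and cadmium, and the gene MTF1 encodes the zinc-sensing transcription factor that switches them on. Their transcripts were followed through 8 genes in the human myeloma cell line KMS-11: MT1A, MT1E, MT1F, MT1G, MT1H, MT1X, MT2A and MTF1. All probes that the platform annotation assigns to these symbols were taken, which gave 9 probes for 7 of the 8 genes, out of 47319 probes and 20045 genes in all. The annotation used here lists no probe for MT1A, which was not analysed here. Where a gene has more than 1 probe, the brightest over all arrays stands for it and the other is described beside it.

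All cells spent 24 h in 1% FBS and then received DMSO or 6 µM NSC12, a compound known for binding and trapping FGF ligands, for 6 h or 12 h. The low serum is therefore shared by the 4 groups (DMSO 6 h, NSC12 6 h, DMSO 12 h, NSC12 12 h), each with 3 arrays of this single line. The labels do not say whether replicates were separate cultures, so p-values speak only to how far these samples scatter, and that scatter may be technical.

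Free zinc in the nucleus and cytosol binds the zinc fingers of MTF1, which then occupies metal response elements in the promoters of metallothionein genes and of SLC30A1, the plasma membrane zinc exporter. Metallothionein transcripts are also known to rise with cadmium, copper, oxidants, glucocorticoids and heat shock in many cell types. The human MT1 and MT2 genes stand side by side on chromosome 16, and MT1 transcripts are near-identical. A probe for one MT1 gene may therefore pick up another, and each MT1 value below is uncertain as to the member it measures.

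The promoters of 3 members that NSC12 raised (MT2A, MT1X and MT1H) and of MT1B, a neighbour whose signal stayed at background, are shown because they hold matches to the element that MTF1 is known to bind. RefSeq promoter sequences (GRCh38.p14) were found for 4 of the 8 members, the fourth being MTF1. Each sequence is the 250 bases before the annotated start, on the plus strand, 5′ to 3′, and capitals mark every match to the core of the metal response element, searched as TGCACNC and TGCGCNC on both strands.
MT2A, chr16:56608334-56608583: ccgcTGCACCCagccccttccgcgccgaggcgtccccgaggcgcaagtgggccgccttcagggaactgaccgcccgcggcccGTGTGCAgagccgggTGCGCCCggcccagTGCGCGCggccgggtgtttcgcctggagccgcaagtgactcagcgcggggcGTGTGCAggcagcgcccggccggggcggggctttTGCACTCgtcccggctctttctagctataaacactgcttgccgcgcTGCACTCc
MT1X, chr16:56682220-56682469: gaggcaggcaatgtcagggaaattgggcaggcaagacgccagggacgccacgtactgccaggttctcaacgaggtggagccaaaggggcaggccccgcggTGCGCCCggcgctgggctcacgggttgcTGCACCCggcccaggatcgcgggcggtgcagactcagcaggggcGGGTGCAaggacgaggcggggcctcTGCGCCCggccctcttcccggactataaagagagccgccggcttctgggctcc
MT1H, chr16:56669564-56669813: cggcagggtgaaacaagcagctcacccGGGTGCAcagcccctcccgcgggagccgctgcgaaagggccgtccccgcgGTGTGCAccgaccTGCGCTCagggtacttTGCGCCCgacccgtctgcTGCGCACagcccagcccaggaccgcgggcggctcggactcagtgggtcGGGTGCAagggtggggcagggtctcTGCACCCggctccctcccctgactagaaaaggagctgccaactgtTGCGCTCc
MT1B, chr16:56651636-56651885: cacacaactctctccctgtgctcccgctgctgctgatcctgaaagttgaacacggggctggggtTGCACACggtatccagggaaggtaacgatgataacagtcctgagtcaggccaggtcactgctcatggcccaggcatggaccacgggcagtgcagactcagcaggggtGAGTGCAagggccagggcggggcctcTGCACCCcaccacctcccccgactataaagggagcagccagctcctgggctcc

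The MT2A promoter held 7 matches, MT1H 8, MT1X 4 and MT1B 3, with no match overlapping another. In MT2A the first match began 246 bases before the start, and the last ran from 8 to 2 bases before it. Among 35116 RefSeq promoter windows of the same length, 24.8% held at least 1 match, 1.58% at least 3, 0.37% at least 4, 0.0313% at least 7 and 0.0171% at least 8. TGCACNC alone was found in 9.87% of windows and TGCGCNC in 16.8%. The MTF1 promoter held no match, which says only that these letters are not in that window, and that of SLC30A1 held 1, at 49 bases before the start. A match is a run of letters and not a measured binding site. MT1B and MT4, another metallothionein gene, each had 3 and gave no signal above background in any group.

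Levels are log2 intensities after quantile normalization between arrays. Mean levels of 384 olfactory receptor genes and pseudogenes, rarely expressed outside the nose, served as background, whose level (their 95th percentile) was 6.98. Each change is a difference of log2 levels ± the standard error (SE) from a limma fit over all genes, and adjusted p-values are limma's with Benjamini-Hochberg adjustment over all 20045 genes, called under 0.05. An additive background remains in the deposited intensities and understates the change of dim genes, so changes of different genes are not ranked against each other.

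Of the 7 members with a probe, 6 rose with NSC12 at 6 h and the same 6 at 12 h, and 1, MTF1, fell at both times. By the same rule, 5.56% of all genes were higher and 7.51% lower at 6 h, and 13.6% were higher and 15.2% lower at 12 h. The median change of the 6 metallothioneins was 3.13 at 6 h and 2.34 at 12 h, against -0.0015 and -0.0014 over all genes. The arrays of the compared groups did not overlap for any of the 7 members at either time, where 27.9% of genes at 6 h and 38.2% at 12 h did not overlap in either direction. At 6 h the changes of the 6 ran from 0.30 to 5.45.

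**Figure D1:**
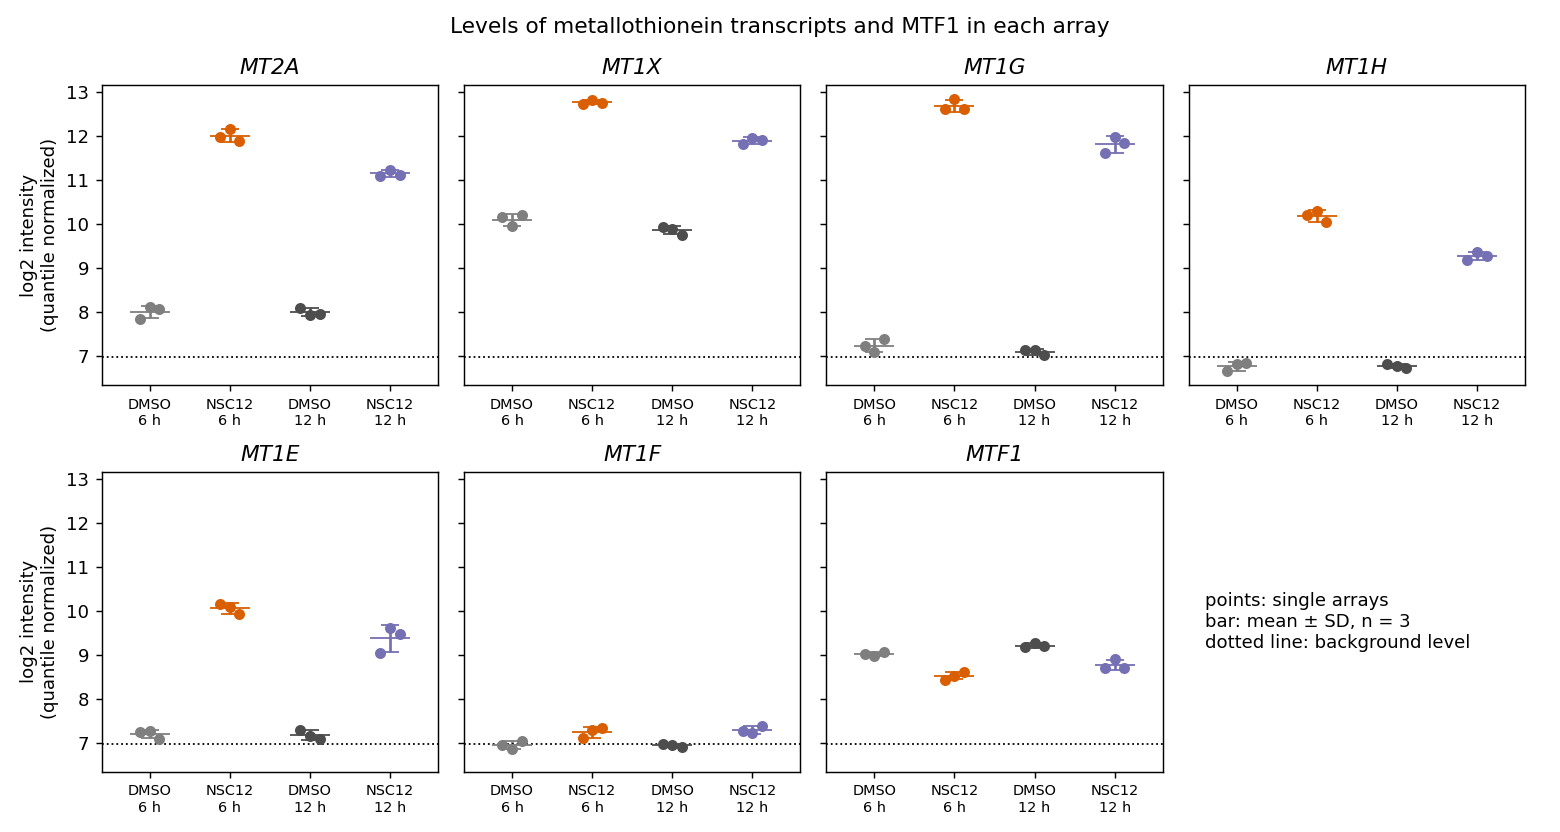
Log2 intensity (y axis, quantile normalized) of the brightest probe of each member in the 4 groups (x axis); points are single arrays, bars the mean ± SD of 3 arrays, and the dotted line the background level of 6.98. MT2A, MT1X, MT1G, MT1H and MT1E stand highest in NSC12 at 6 h, somewhat lower in NSC12 at 12 h and lowest in DMSO, MT1F stays near the dotted line, and MTF1 is lower in NSC12 than in DMSO at each time.

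MT2A, the single MT2 gene and usually a widely expressed metallothionein in human cells, stood at 7.85, 8.12 and 8.07 in the DMSO arrays at 6 h and at 11.98, 12.17 and 11.89 in NSC12. At 12 h the arrays gave 8.10, 7.94 and 7.97 in DMSO and 11.10, 11.24 and 11.12 in NSC12. On the linear scale this was 231 to 277 units in DMSO at 6 h against 3805 to 4616 in NSC12. The lowest NSC12 array lay far above the highest DMSO array at both times. MT2A rose 16.04-fold at 6 h (log2 change 4.003 ± 0.09 SE, adjusted p = 3.73e-19, limma) and 8.90-fold at 12 h (3.15 ± 0.09, adjusted p = 3.22e-17, limma). After normexp background correction the log2 changes were 4.26 and 3.40.

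MT1X, a metallothionein well above background in DMSO, gave 10.16, 9.95 and 10.21 in DMSO and 12.74, 12.83 and 12.77 in NSC12 at 6 h. At 12 h it gave 9.93, 9.90 and 9.77 in DMSO and 11.83, 11.97 and 11.91 in NSC12. The groups did not overlap, and the NSC12 arrays at 12 h all lay below those at 6 h. MT1X rose 6.38-fold at 6 h (2.67 ± 0.08, adjusted p = 5.47e-17, limma) and 4.10-fold at 12 h (2.04 ± 0.08, adjusted p = 7.40e-15, limma). Its signal was far from the background, and normexp background correction left the change at 6 h at 2.72.

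MT1G, a zinc- and copper-binding MT1 gene, lay just above background in DMSO, at 7.23, 7.10 and 7.39 at 6 h and 7.14, 7.15 and 7.02 at 12 h. In NSC12 it reached 12.61, 12.86 and 12.61 at 6 h and 11.61, 11.99 and 11.84 at 12 h. The change was 5.45 ± 0.10 at 6 h (adjusted p = 9.27e-21, limma) and 4.71 ± 0.10 at 12 h (adjusted p = 1.75e-19, limma). With normexp correction the changes were 5.95 and 5.26.

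MT1H, another MT1 gene, was below background in every DMSO array, with 6.66, 6.83 and 6.84 at 6 h and 6.83, 6.78 and 6.74 at 12 h. NSC12 brought it to 10.21, 10.31 and 10.05 at 6 h and to 9.18, 9.38 and 9.27 at 12 h. Against the background level this was at least 9.22-fold higher at 6 h (adjusted p = 4.63e-18, limma) and at least 4.90-fold higher at 12 h (adjusted p = 1.53e-15, limma). The other MT1H probe lay below background in all groups, with means from 6.72 to 6.89, and changed by 0.07 at 6 h (adjusted p = 0.572) and by -0.03 at 12 h (adjusted p = 0.844) in the limma fit over all probes, in which 3.04% of probes were higher at 6 h and 8.96% at 12 h. Normexp correction moved the log2 change of the brighter probe from 3.41 to 4.11 at 6 h and from 2.49 to 3.13 at 12 h.

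MT1E, which neighbours MT1M and MT1L in the cluster, gave 7.25, 7.27 and 7.10 in DMSO and 10.16, 10.10 and 9.93 in NSC12 at 6 h. At 12 h it gave 7.30, 7.15 and 7.08 in DMSO and 9.04, 9.61 and 9.48 in NSC12, the widest spread of any member in a group (SD 0.30, n = 3). The rise was 7.22-fold at 6 h (2.85 ± 0.11, adjusted p = 2.30e-14, limma) and 4.58-fold at 12 h (2.20 ± 0.11, adjusted p = 2.16e-12, limma). Its DMSO means (7.21 and 7.18) were near background, and normexp correction gave larger log2 changes of 3.31 and 2.62. Its other probe was below background in all groups, with means from 6.78 to 6.85, and changed by -0.02 at 6 h (adjusted p = 0.922, limma over all probes). For MT1E and MT1H the choice of the brightest probe used the NSC12 arrays: in DMSO at 6 h the 2 MT1H probes had means of 6.78 and 6.82. As the mean of both probes the changes at 6 h and 12 h were 1.42 and 1.12 for MT1E and 1.74 and 1.23 for MT1H, all past the threshold.

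MT1F, another MT1 gene, stayed close to background. It lay at 6.95, 6.86 and 7.04 in DMSO and 7.11, 7.30 and 7.34 in NSC12 at 6 h, and at 6.97, 6.95 and 6.92 against 7.28, 7.22 and 7.39 at 12 h. The groups did not overlap, but all 12 arrays lay between 6.86 and 7.39. The rise was 0.30 ± 0.07 at 6 h (adjusted p = 0.00892, limma) and 0.35 ± 0.07 at 12 h (adjusted p = 0.00078, limma), at least 1.18-fold and 1.24-fold against the background level. Leaving out the second DMSO array at 6 h (adjusted p = 0.0659, limma) or the third NSC12 array at 6 h (adjusted p = 0.0559, limma) ended the call at 6 h.

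Metallothionein transcripts were lower at 12 h than at 6 h within NSC12. Of the 7 members, 5 fell (MT1E, MT1G, MT1H, MT1X and MT2A), MTF1 rose and MT1F did not pass (0.05 ± 0.07, 95% interval -0.11 to 0.21), where 11.4% of all genes were lower, 11% were higher and 35.4% did not overlap. MT1H fell by 0.91 ± 0.09 (adjusted p = 1.46e-07, limma), MT1X by 0.88 ± 0.08 (adjusted p = 6.10e-08), MT1G by 0.88 ± 0.10 (adjusted p = 1.24e-06), MT2A by 0.86 ± 0.09 (adjusted p = 4.22e-07) and MT1E by 0.68 ± 0.11 (adjusted p = 1e-04). The 12 h arrays lay below the 6 h arrays without overlap for each of the 5, and each call held under all 19 other settings tried. With median centring the changes were smaller in size: -0.80 for MT1H, -0.54 for MT1X, -0.54 for MT1G, -0.59 for MT2A and -0.57 for MT1E. Mean intensity before normalization ran from 378 to 497 units in NSC12 at 6 h and from 548 to 618 at 12 h. Its part in these falls was not tested.

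The same question was asked as a difference between the responses at 12 h and at 6 h, each against its own DMSO group. The 5 members had smaller responses at 12 h, by 0.92 ± 0.12 for MT1H (adjusted p = 5.13e-05, limma), and by 0.64 for MT1X to 0.85 for MT2A in the others, where 5.77% of all genes were lower and 4.65% higher by this test. MT1F (0.06 ± 0.11, adjusted p = 0.84) and MTF1 (0.05 ± 0.11, adjusted p = 0.869) did not pass. Median centring of the arrays in place of quantile normalization kept the direction but ended 4 of the 5 calls: MT1E (-0.52, adjusted p = 0.188), MT1G (-0.43, adjusted p = 0.496), MT1X (-0.37, adjusted p = 0.606) and MT2A (-0.61, adjusted p = 0.229). MT1G also missed the threshold with cyclic loess (-0.54, adjusted p = 0.0761), and so did MT1E when its probes were averaged (-0.30, adjusted p = 0.0686).

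In DMSO, none of the 7 members changed between 6 h and 12 h by limma, where 0.249% of all genes were higher and 0.15% lower, and 2 of the 7 were under 0.05 before adjustment. These were MT1X (-0.24 ± 0.08, adjusted p = 0.218, limma) and MTF1 (0.19 ± 0.08, adjusted p = 0.404, limma), whose arrays at the compared times did not overlap, as for 14.9% of all genes. The others had changes from -0.13 (MT1G) to 0.01 (MT1H).

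MTF1 is the activator of the metallothionein genes and works mainly through its zinc binding and nuclear entry rather than through its own transcript. Its probe gave 9.03, 8.97 and 9.07 in DMSO and 8.44, 8.53 and 8.61 in NSC12 at 6 h. At 12 h it gave 9.17, 9.27 and 9.20 in DMSO and 8.71, 8.90 and 8.70 in NSC12. All NSC12 arrays lay below all DMSO arrays of either time. MTF1 fell by 0.50 ± 0.08 at 6 h (adjusted p = 0.000128, limma) and by 0.45 ± 0.08 at 12 h (adjusted p = 0.000134, limma), and both calls held under all 19 other settings tried. Within NSC12 it rose by 0.24 ± 0.08 from 6 h to 12 h (adjusted p = 0.0339), which did not pass under median centring (adjusted p = 0.257) or cyclic loess (adjusted p = 0.0698). Nor did it pass when the first (adjusted p = 0.151) or second (adjusted p = 0.0734) NSC12 array at 6 h, or the second NSC12 array at 12 h (adjusted p = 0.191), was left out.

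**Figure D2:**
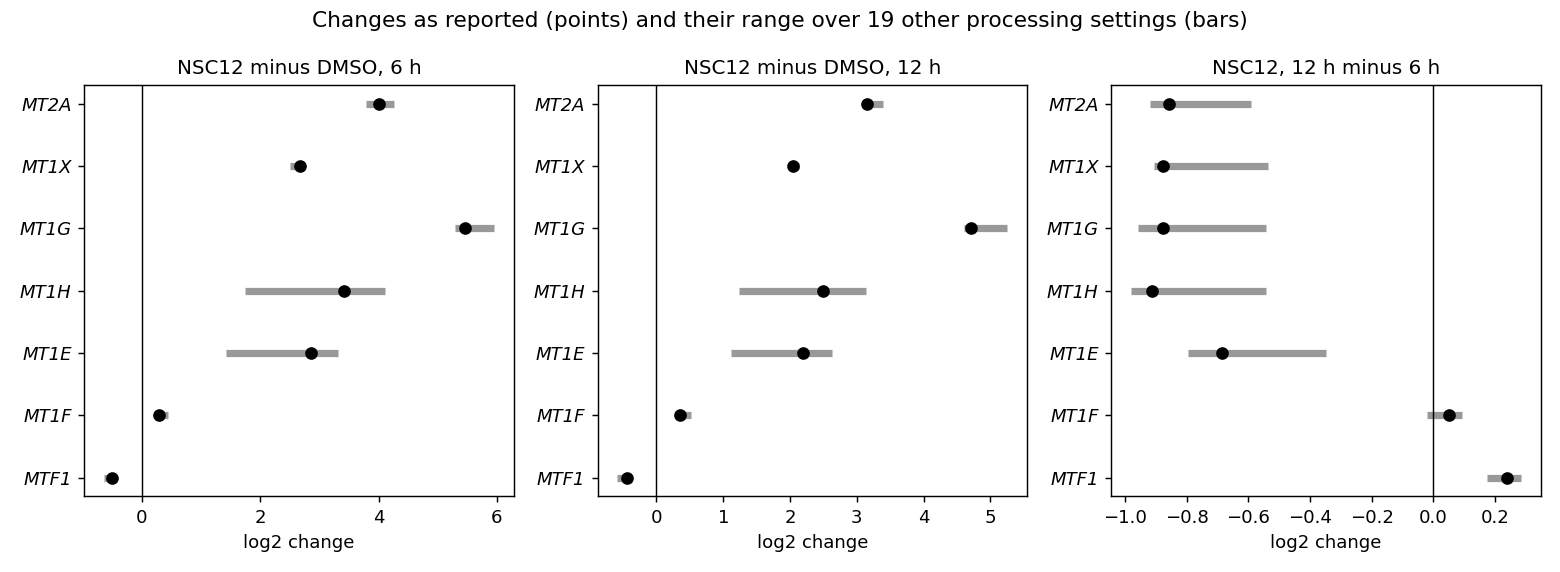
Log2 change (x axis) of each member (y axis) as reported (points) and its range over the 19 other processing settings (bars), for NSC12 minus DMSO at 6 h, the same at 12 h, and NSC12 at 12 h minus NSC12 at 6 h. The low ends for MT1H (1.74) and MT1E (1.42) at 6 h come from averaging their 2 probes, the bars of all members stay on 1 side of 0 at 6 h and at 12 h, and those of the 5 falling members stay below 0 on the right.

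Other metallothionein genes gave little or no signal. Of 13 listed genes and pseudogenes, 6 had a probe, and 5 of these (MT1B, MT1M, MT1IP, MT3 and MT4) were below background in all 4 groups. MT3, known mainly from brain, had a change of 0.15 at 6 h (adjusted p = 0.0553, 95% interval 0.05 to 0.26), and MT1M, another MT1 gene, 0.10 (adjusted p = 0.197, interval 0.0024 to 0.20). MT1L, a transcribed pseudogene, rose at 6 h, with 6.78, 6.75 and 6.86 in DMSO and 7.09, 7.36 and 7.11 in NSC12 (0.39 ± 0.07, adjusted p = 0.000808, limma), at least 1.15-fold against the background level. At 12 h it did not pass (0.07 ± 0.07, adjusted p = 0.594), nor did the difference between the responses at the 2 times (-0.32, adjusted p = 0.0584). That difference passed without the first NSC12 array at 6 h (adjusted p = 0.0417, limma) or the third at 12 h (adjusted p = 0.043). Within NSC12, MT1L was called lower at 12 h than at 6 h (-0.25). This call was lost without the second NSC12 array at 6 h (adjusted p = 0.119, limma) or the first at 12 h (adjusted p = 0.107).

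Among genes with a probe, in the order of the RefSeq annotation, those called higher at 6 h lay in separate runs. Genes without a probe, MT1A among them, are missing from this order. MT2A, MT1L and MT1E stood side by side, as did MT1F, MT1G and MT1H, although MT1L and MT1F were close to background. MT1M and MT1B, both below background, lay between these runs. MT1X followed after MT1IP, which was below background too, and MT4 and MT3, at the other end, were below background. Of 3 flanking genes on each side with a probe, chosen after the values were seen, none rose at 6 h, and 2 (MIR138-2 and SLC12A3) were below background. NUP93, a nucleoporin next to MT1X, fell by 0.33 at 6 h and by 0.59 at 12 h, although at 6 h it missed the threshold with median centring (-0.46, adjusted p = 0.119). BBS2, a cilium protein gene next to MT4, was at -0.16 at 6 h (adjusted p = 0.302) and fell by 0.66 at 12 h. OGFOD1, a ribosomal protein hydroxylase, rose by 0.22 at 12 h and NUDT21, of the polyadenylation machinery, fell by 0.29.

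**Figure D3:**
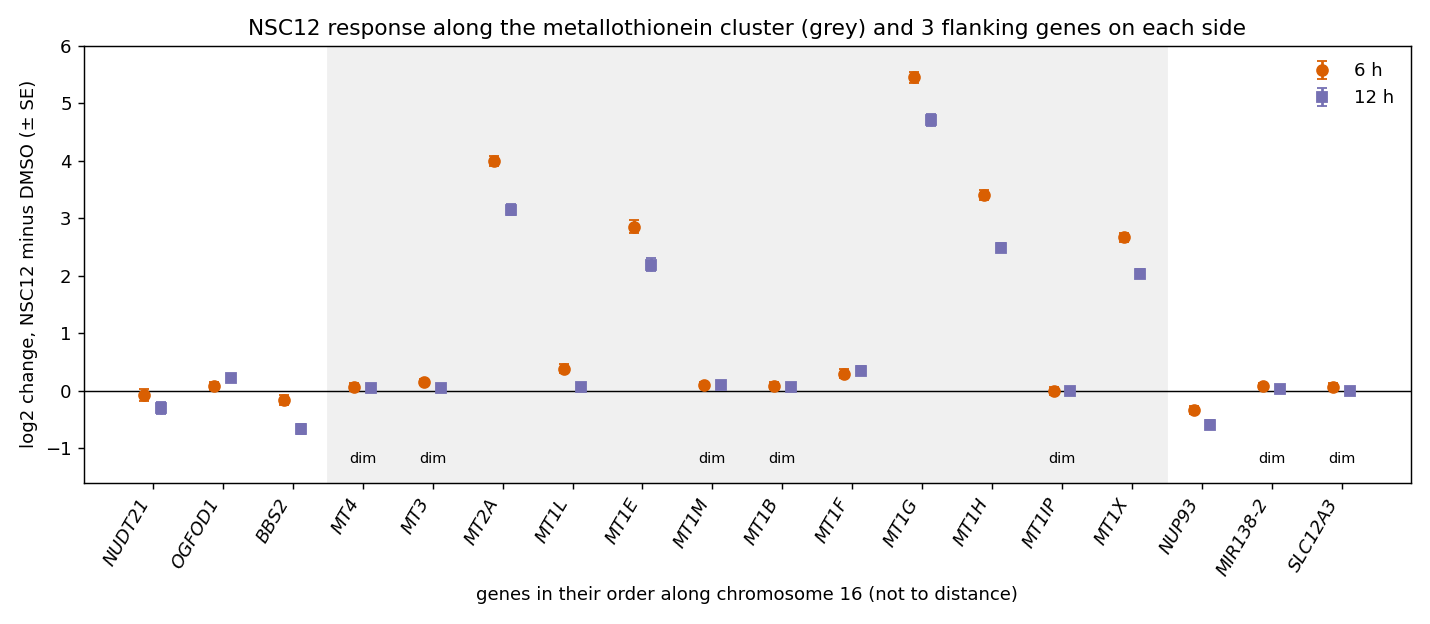
Log2 change (y axis, ± SE) of NSC12 minus DMSO at 6 h (circles) and 12 h (squares) for genes with a probe. They are in their order along chromosome 16 (x axis, not to distance), with the metallothionein cluster in grey and "dim" under genes below background in all groups. Changes between 2.04 and 5.45 are seen at MT2A, MT1E, MT1G, MT1H and MT1X, while the 3 flanking genes on each side lie between -0.66 and 0.22.

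Zinc transporters are the other main arm of zinc handling: SLC30 proteins move zinc out of the cytosol and SLC39 proteins bring it in. SLC30A1, the classical MTF1 target, gave 8.08, 8.21 and 8.10 in DMSO and 10.85, 10.81 and 10.84 in NSC12 at 6 h. At 12 h it gave 8.30, 8.34 and 8.25 in DMSO and 10.85, 10.87 and 11.01 in NSC12. The rise was 2.70 ± 0.07 at 6 h (adjusted p = 2.73e-17, limma) and 2.61 ± 0.07 at 12 h (adjusted p = 4.08e-17, limma). Its second probe rose by 2.33 and 2.53. From 6 h to 12 h within NSC12 the brighter probe did not pass (0.07 ± 0.07, adjusted p = 0.58, limma), while the second probe was higher at 12 h without overlap (0.33 ± 0.09, adjusted p = 0.00933, limma over all probes), and so was the mean of both (0.20, adjusted p = 0.0392, limma).

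Of 24 zinc transporter genes, 1 rose and 2 fell at 6 h, and 3 rose and 6 fell at 12 h. Over all genes, 5.56% were higher and 7.51% lower at 6 h, and 13.6% and 15.2% at 12 h. The median changes of the 24 were 0.0005 and -0.04. SLC39A1, a plasma membrane zinc importer, fell from 10.58, 10.54 and 10.64 to 9.90, 9.94 and 9.96 at 6 h (-0.65 ± 0.07, adjusted p = 6.01e-07, limma) and by 1.03 at 12 h. At 12 h SLC39A4, an importer known from the intestine, rose by 0.76 on the only 1 of its probes above background, and SLC39A11 fell by 0.66.

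**Figure D4:**
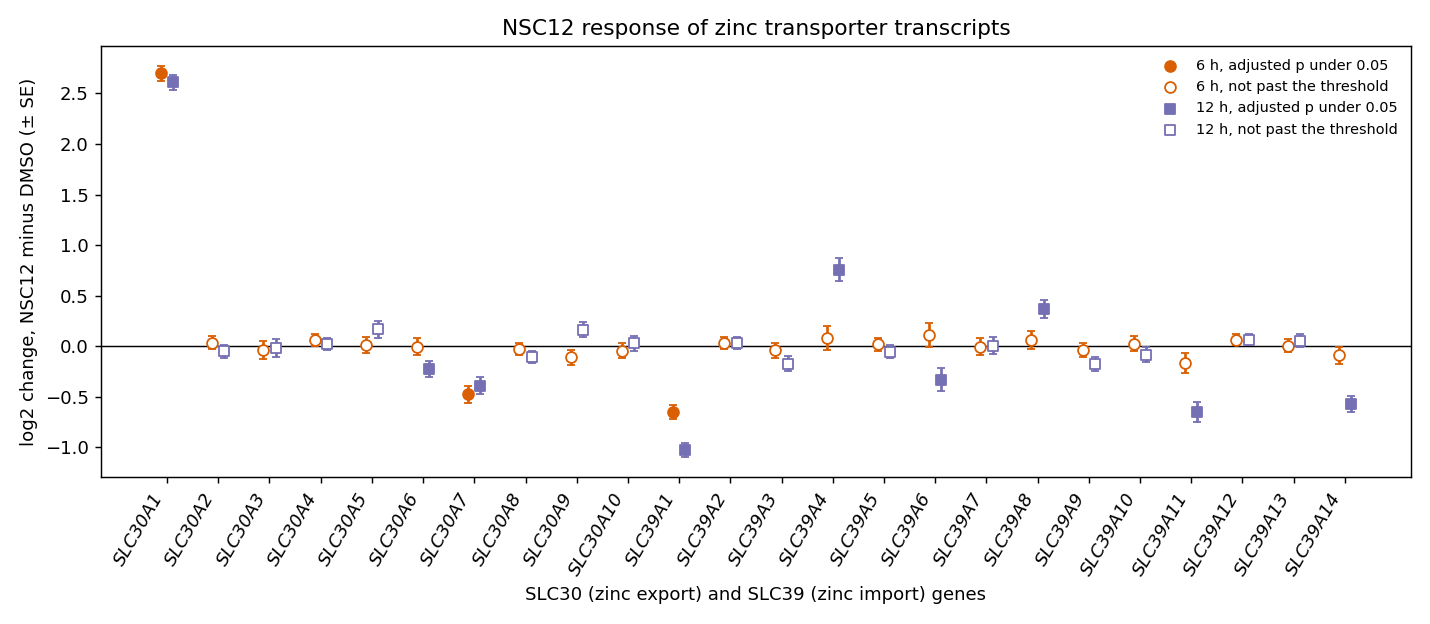
Log2 change (y axis, ± SE) of NSC12 minus DMSO at 6 h (circles) and 12 h (squares) for 24 SLC30 and SLC39 genes (x axis); filled symbols passed an adjusted p of 0.05. SLC30A1 stands alone at 2.70 and 2.61, and the other genes lie between -1.03 and 0.76.

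Among 12 genes of copper and cadmium handling, 1 rose and 1 fell at 6 h and 3 rose and 4 fell at 12 h. The shares of all genes were 5.56% higher and 7.51% lower at 6 h, and 13.6% and 15.2% at 12 h. The medians of the 12 were -0.04 and -0.01. SLC11A2, a carrier of divalent iron and cadmium, fell by 0.57 at 6 h and 0.49 at 12 h. COMMD1, a copper export factor, rose by 0.32 at 6 h and by 0.71 at 12 h, the former missing the threshold with median centring (0.18, adjusted p = 0.743). ATOX1, a copper chaperone, rose by 0.64 and SCO2, of cytochrome oxidase assembly, by 0.52 at 12 h.

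Of 8 partners and other reported targets of MTF1, 1 fell at 6 h, and 2 rose and 1 fell at 12 h. By the same rule, 5.56% of all genes were higher and 7.51% lower at 6 h, and 13.6% and 15.2% at 12 h. The medians of the 8 were 0.05 and 0.04. CREBBP, a histone acetyltransferase, fell by 1.26 ± 0.08 at 12 h (adjusted p = 1.15e-10, limma). Its fall of 0.26 at 6 h did not pass with median centring (-0.40, adjusted p = 0.207), with its probes averaged (adjusted p = 0.309), with the replicate block (adjusted p = 0.0557) or when any 1 of 7 arrays was left out (adjusted p up to 0.128). SELENOW, a selenoprotein, rose by 0.52 at 12 h. HIF1A, the hypoxia factor, was at 0.25 (adjusted p = 0.0463) at 12 h on its brightest probe but at -0.29 on another and at -0.01 with its probes averaged. It also missed the threshold with median centring (0.15, adjusted p = 0.492, limma) and with the replicate block (adjusted p = 0.0537). The same held when any 1 of 8 arrays was left out (adjusted p up to 0.279).

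Among the members, MT2A correlated over the 12 arrays at 0.999 with MT1H, 0.997 with MT1G, 0.994 with MT1E and 0.991 with MT1X. Its correlation was 0.874 with MT1F, which stayed near background, and -0.921 with MTF1. Outside the members, the genes whose levels ran most like MT2A were H2BC8, H2BC7, RAB30, DDIT3 and CCL4L1, with Pearson correlations from 0.992 to 0.996 among 12297 non-member genes with an official symbol that were above background in a group. H2BC7, H3C14, DDIT3, CCL4L1 and H2BC8 were the non-members most like MT1G (0.995 to 0.996). These correlations describe arrays that fall into DMSO and NSC12 sets, a split that all these genes share, and no test was made. DDIT3, a stress-induced transcription factor, rose by 1.95 at 6 h and 1.71 at 12 h, and CCL4L1, a chemokine, by 3.54 and 3.22. H2BC7 and H2BC8, genes of near-identical histones H2B, rose by 2.54 and 2.13 at 6 h, and RAB30, a Golgi GTPase, by 1.65. VTRNA2-1, SRSF6, ANKZF1, BEX2 and CPVL were the non-members most like MTF1 (0.956 to 0.968) and fell by 0.44 to 1.11 at 6 h.

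Across the whole table, 1114 genes were higher and 1505 lower at 6 h, and 2734 and 3050 at 12 h. Under median centring these were 276 and 1194, and 1483 and 2604, while 7 members were still called at each time. Between the NSC12 groups 2206 genes were higher and 2284 lower at 12 h (1817 and 693 under median centring), between the responses 933 and 1156 (277 and 87), and in DMSO 50 and 30 (13 and 1). Mean intensity ranged from 347 to 634 units over the arrays, log2 values within a group correlated at 0.992 to 0.996, and the lowest mean belonged to the third DMSO array at 6 h. Of 10 plasma cell and myeloma markers, 1 was called higher and 2 lower with NSC12 at 6 h, and 0 higher and 5 lower at 12 h. The shares of all genes were 5.56% higher and 7.51% lower at 6 h, and 13.6% and 15.2% at 12 h. All 10 were above background in at least 1 group, as were 12351 of all 20045 genes, but CD38 (at most 7.06) and SLAMF7 (at most 7.28) stayed close to it. Of 13 markers of other cell types, 6 were, and 5 of these reached no more than 7.56, while ALB, the albumin gene, reached 9.02 in NSC12 at 12 h on 1 of its 2 probes (changes of 0.37 at 6 h, not called with median centring at adjusted p = 0.223, limma, and 1.55 at 12 h). Of these 13 markers, 1 was called higher with NSC12 at 6 h and 2 at 12 h, against 5.56% and 13.6% of all genes. The part of these marker transcripts in the results above was not tested.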

How the data were processed

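Total RNA was converted to biotinylated cRNA with an Ambion kit for Illumina arrays, per the labels' protocols. The deposited data give 1 linear intensity per probe and array. They were taken as unnormalized because array means differed and minima ran from 69.5 to 99.8. The scanner software and any correction by the authors are not stated in the labels. The number of arrays limits the precision.

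Symbols were updated through Entrez identifiers in a RefSeq table of GRCh38.p14 (30072 of 30111 probes with 1 symbol; 8 had several and 17200 none listed). A floor of 16 was set, intensities were quantile normalized and taken to log2, and the brightest probe stood for each gene. No gene was removed. limma 3.58.1 (R 4.3.3) was fitted with 1 mean per group over 12 arrays (8 residual degrees of freedom) and an intensity trend, and again over all probes. A fold against a group below background is given as a bound, with that group's arrays raised to the background level. The fit was checked on simulated data. Figures used matplotlib 3.10.9.

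The members, lists and tests were chosen with earlier results of these data known. Named genes are all members, other metallothioneins, up to 4 called genes of each other list and the 5 most correlated genes; flanking genes, CD38 and ALB were added after the values were seen. Alternatives were median centring, cyclic loess, normexp (offset 50), a filter on dim genes, the mean of probes, all probes, a replicate block, no trend and leaving out each array.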

Additional observations from a re-analysis of the deposited data

Results flagged for a closer look

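The response to NSC12 differed between 12 h and 6 h, by limma's test of the difference with adjustment over all genes, for 16 of the genes named. Among the metallothioneins the difference (12 h minus 6 h, log2) was -0.66 ± 0.16 SE for MT1E (adjusted p = 0.00939), -0.74 ± 0.14 for MT1G (adjusted p = 0.00147), -0.92 ± 0.12 for MT1H (adjusted p = 5.13e-05), -0.64 ± 0.11 for MT1X (adjusted p = 0.000595) and -0.85 ± 0.13 for MT2A (adjusted p = 0.000166). All 5 were called at both times, with the smaller change at 12 h.

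Among zinc and copper genes it was -0.38 for SLC39A1, 0.68 for SLC39A4, -0.49 for SLC39A11, 0.39 for COMMD1 and 0.49 for ATOX1. CREBBP (-0.999, adjusted p = 1.35e-05) and SELENOW (0.46) are from the MTF1 list. H2BC8 (-0.52) and H2BC7 (-0.40) are from the genes most like the metallothioneins, and BBS2 (-0.50) flanks the cluster. ALB, a marker of another cell type, differed by 1.18 ± 0.13 (adjusted p = 5.86e-06). MT1H, CREBBP and ALB were still called with median centring. The other 13 kept their direction but missed the threshold, 4 of them metallothioneins. Among the rest the difference was larger with median centring for ATOX1 (0.79, adjusted p = 0.0537), COMMD1 (0.65, adjusted p = 0.217), SLC39A4 (0.73, adjusted p = 0.0616) and SELENOW (0.49, adjusted p = 0.269). It was smaller in size for SLC39A1 (-0.32, adjusted p = 0.676), SLC39A11 (-0.47, adjusted p = 0.374), H2BC8 (-0.44, adjusted p = 0.278), H2BC7 (-0.30, adjusted p = 0.504) and BBS2 (-0.47, adjusted p = 0.316). SLC39A4 also missed the threshold with its probes averaged (0.27, adjusted p = 0.0844), and H2BC7 with cyclic loess (-0.32, adjusted p = 0.0891) and normexp (-0.44, adjusted p = 0.0632). The calls of SLC39A11, COMMD1 and H2BC7 were also lost when any 1 of 7 arrays was left out (highest adjusted p = 0.0778, 0.0843 and 0.112, limma), and that of ATOX1 without the third NSC12 array at 6 h (adjusted p = 0.0671) or the second at 12 h (adjusted p = 0.0655).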

How the results depend on the processing

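Under 19 alternatives that give a value for each gene (7 other steps or fits and 12 arrays left out in turn), the 7 members kept their direction for NSC12 against DMSO at both times and lost no call apart from MT1F at 6 h. Median centring lowered the genes called from 2619 to 1470 at 6 h, from 2089 to 364 for the difference between the responses, from 4490 to 2510 between the NSC12 groups and from 80 to 14 in DMSO, and the members called for the difference from 5 to 1. In DMSO, 36 genes were called with every probe tested, and 21 to 123 when 1 array was left out, 21 without the third DMSO array at 6 h or the second at 12 h and 123 without the third at 12 h. HIF1A at 12 h turned to -0.0134 with its probes averaged. The cause of these shifts was not tested. With the replicate number as a block, 7, 7, 5, 6 and 0 members were called, as without it, and 2504, 5695, 1992, 4320 and 54 genes (6 h, 12 h, difference, NSC12 12 h against 6 h, DMSO). Same-numbered arrays did not deviate together (correlations from -0.3 to 0.128 over 18 pairs), so the numbers were not taken as pairs. Signals near background limit MT1F, MT1L and the DMSO levels of MT1H, MT1G and MT1E.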
